A study of Mus musculus with 2 samples.

Results

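The 30 genes described here code for the proteins that carry glucose into brain cells, split it by glycolysis, exchange lactate between cells, bring pyruvate into mitochondria and burn ketone bodies. They were chosen by symbol, not by a measured value: 2 glucose carriers, 16 genes of the glycolytic steps from hexokinase to pyruvate kinase, 2 lactate dehydrogenases, 3 monocarboxylate transporters, 2 subunits each of pyruvate dehydrogenase and of the mitochondrial pyruvate carrier, and 3 enzymes of ketone body use. All 30 symbols were found among 55536 annotated genes. Aldoa stood under 2 gene identifiers: the main one is described below, and the other, just upstream of it on chromosome 7, held 23 and 26 expected counts.

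The samples were 2 total RNA libraries from hippocampus, taken at 10 days of age from B6CASTF1/J mice (offspring of a cross between the C57BL/6J strain and the wild-derived CAST/EiJ strain). They form 1 group of 2 biological replicates, with no treatment and no mutation in the labels. The labels give both libraries the same donor entry and do not say what separates the replicates. An SD over n = 2 is the spread between these libraries. Each label names 3 males and 300 ng of starting RNA, without saying whether the RNA was pooled, and the spike-in entry names stranded, Ribo-reduced libraries. Depth came to 32035705 expected counts for replicate 1 and 29747193 for replicate 2, spike-ins included. Sex-linked genes went against 1 label: Xist had 25 counts in replicate 1 and 30841 in replicate 2, and 4 genes of chromosome Y had 764 to 2164 counts in replicate 1 and 0 to 2 in replicate 2. Replicate 2 thus read as female against its label, and it is named below by its replicate number. Each ratio of replicate 1 over replicate 2 therefore also sets a library with chromosome Y counts against one with Xist counts. Of the cell type markers, 8 neuronal markers summed to 2865 and 2980 TPM (a level per transcript length on a scale with a fixed total), and 8 astrocyte markers to 1701 and 1718 TPM. These mark brain cell types and do not tell hippocampus from other brain regions. With 1 group there is no comparison between conditions. The account below gives levels, the balance between related genes in each library, the forms of the transcripts, and the difference between the libraries.

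Glycolysis turns glucose into pyruvate in the cytosol. Lactate dehydrogenase converts pyruvate to lactate and back, and monocarboxylate transporters move lactate, pyruvate and ketone bodies across cell membranes. Many steps have several isoenzymes coded by different genes, and in the brain some of these are known as more neuronal (Slc2a3, Eno2, Slc16a7, Ldhb) and others as more astrocytic, endothelial or general (Slc2a1, Aldoc, Eno1, Slc16a1, Ldha). In suckling rodents, milk fat is turned into ketone bodies by the liver, and the young brain uses them as fuel beside glucose. In bulk tissue, fewer cells of a type and less RNA per cell cannot be told apart.

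Pyruvate kinase, the last step of glycolysis, shows the sequence level best, since 1 gene makes both of its forms. Pkm (chromosome 9, 59656368 to 59679375, plus strand, mm10) carries a pair of mutually exclusive coding exons: the M1 form, known as the constantly active enzyme of adult muscle and brain, and the M2 form, known as the regulated enzyme of embryonic, proliferating and glial cells. In the GENCODE M21 transcripts both forms have 11 exons and differ at exon 9. Both exon-9 sequences are 167 bases long, 372 bases of intron lie between them, and 103 of the 167 bases are identical (61.7%). They are printed 5′ to 3′ as they stand in Pkm-202 and Pkm-201, with the 64 bases that differ between them in capitals, because reads over these bases tell the forms apart.
M1 exon, chr9:59675029-59675195, plus strand: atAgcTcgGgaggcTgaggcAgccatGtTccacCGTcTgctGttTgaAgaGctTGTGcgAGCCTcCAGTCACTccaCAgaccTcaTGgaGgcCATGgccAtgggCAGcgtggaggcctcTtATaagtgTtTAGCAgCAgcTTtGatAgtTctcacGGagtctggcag
M2 exon, chr9:59675568-59675734, plus strand: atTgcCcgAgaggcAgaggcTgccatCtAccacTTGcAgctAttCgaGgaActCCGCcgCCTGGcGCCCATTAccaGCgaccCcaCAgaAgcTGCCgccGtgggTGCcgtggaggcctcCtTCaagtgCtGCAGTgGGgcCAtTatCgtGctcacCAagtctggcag

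Pkm as a whole had 362 and 369 TPM, the third highest level of the 30. Its RNA held both forms in nearly equal amounts. Of the TPM of the M1 form (Pkm-202) and the M2 form (Pkm-201) together, M1 made up 51.8% in replicate 1 and 49.8% in replicate 2, a mean of 50.8 ± 1.40% (SD, n = 2), in the table derived from alignments. In the table derived from the FASTQ file the M1 share was 45.2% and 44.2%, a mean of 44.7 ± 0.69% (SD, n = 2). The tables thus differ by more than the libraries do within each, with the alignment-based shares on either side of an even split and the FASTQ-based shares below it. Both forms together took 95.2% and 95.1% of all Pkm TPM in the alignment-based table, and 89.8% and 94.0% in the FASTQ-based one. The annotated forms also differ outside exon 9: Pkm-202 is 2041 bases long with a first exon of 77 and a last exon of 462 bases, and Pkm-201 is 2432 bases long with a first exon of 282 and a last exon of 648 bases. A share per transcript therefore rests on reads from these ends as well as from exon 9.

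**Figure D1:**
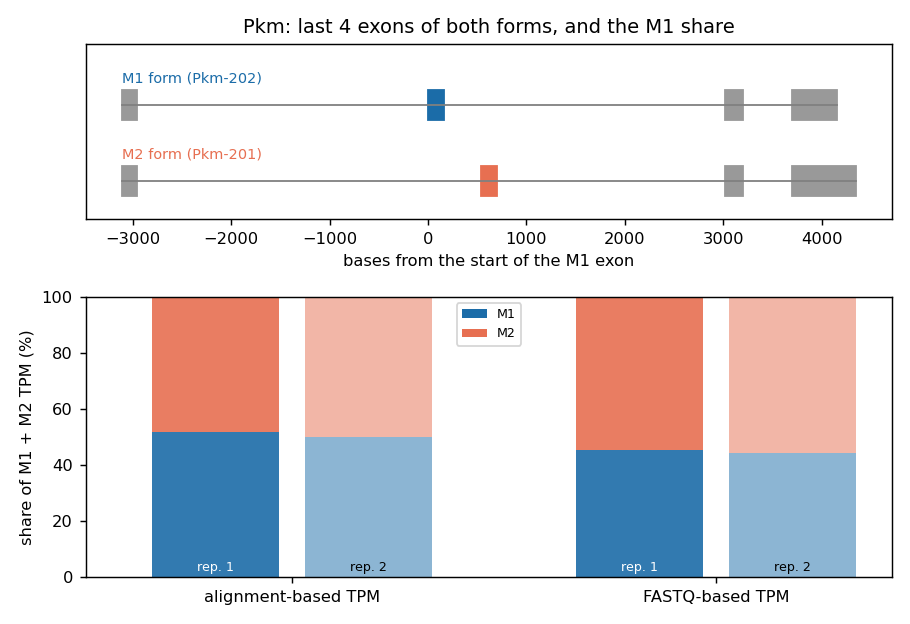
Top: exons 8 to 11 of the M1 form (Pkm-202) and the M2 form (Pkm-201) to scale, in bases from the start of the M1 exon, with the alternative exon 9 in colour. Bottom: M1 and M2 as a percent of the TPM of both, for each library and table, with M1 at 51.8% and 49.8% in the alignment-based table and at 45.2% and 44.2% in the FASTQ-based table.

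Splicing factors known to act on this exon choice were all present. Hnrnpa2b1 had 315 and 323 TPM, Hnrnpa1 179 and 188 TPM, Srsf3 80.1 and 79.7 TPM, and Ptbp1 28.6 and 35.9 TPM. Ptbp2, the relative of Ptbp1 that cells switch to as they become neurons, stood above Ptbp1 with 72.0 and 73.0 TPM. None of these 5 passed the test between the libraries described below; by the FASTQ-based counts Ptbp1 and Hnrnpa2b1 did, with log2 ratios of -0.17 and -0.07 (replicate 1 over replicate 2).

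As a set the 30 genes were abundant. In both libraries 29 of 30 reached 1 TPM, 28 had a mean over 10 TPM and 18 a mean of at least 100 TPM, a level that 6.76% of the 13062 detected nuclear protein-coding genes reached. Their median was 134 TPM in replicate 1 and 131 TPM in replicate 2 (133 ± 1.76 TPM, SD, n = 2), against 15.8 and 15.6 TPM over the detected nuclear protein-coding genes. Their sum was 4921 and 4911 TPM, which is 1.06% and 1.07% of the TPM of all nuclear protein-coding genes in the alignment-based table and 1.30% and 1.33% in the FASTQ-based table. Only Hk2 and Slc16a3 had a mean below the median of detected genes.

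**Figure D2:**
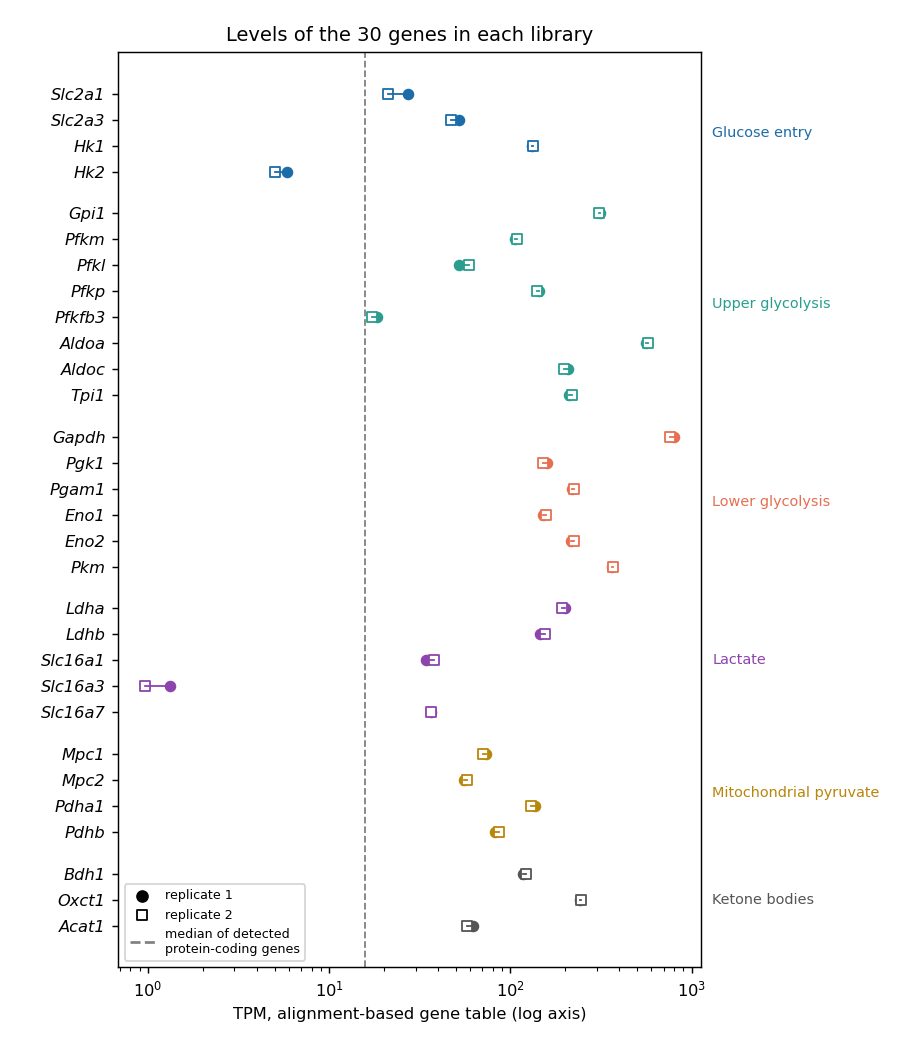
TPM of each of the 30 genes (log axis, alignment-based gene table) in replicate 1 (filled circles) and replicate 2 (open squares), grouped by role, with the median of detected nuclear protein-coding genes, 15.7 TPM, as a dashed line. The libraries nearly coincide for most genes, Gapdh and Aldoa stand at the right, and Hk2 and Slc16a3 stand left of the dashed line.

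Glucose enters brain cells through facilitative carriers. Slc2a3, which codes for the high-affinity carrier GLUT3 of neurons, had 52.3 TPM in replicate 1 and 47.1 TPM in replicate 2. Slc2a1, which codes for GLUT1 of the blood-brain barrier endothelium and of astrocytes, had 27.1 and 21.1 TPM. Slc2a3 was above Slc2a1 in both libraries, 2.08-fold on average (log2 ratio of TPM 1.06 ± 0.15, SD, n = 2). The ratio kept its direction in the FASTQ-based table, where it was smaller and spread more (log2 0.34 and 0.87). By alignment, much of the Slc2a1 signal lay on a form that is not annotated as coding for the carrier. Slc2a1-204, of the nonsense-mediated decay class, took 42.9% and 39.1% of Slc2a1 TPM. Slc2a1-201, the full-length coding form of 3260 bases, took 54.3% and 59.4%. Over protein-coding transcripts only, Slc2a3 was 3.28-fold above Slc2a1 by alignment (log2 1.71). In the FASTQ-based table it was 2.08-fold above over such transcripts (log2 0.80 and 1.31).

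Hexokinase traps glucose as glucose 6-phosphate. Hk1, the hexokinase that brain is known for and that binds to mitochondria, had 132 and 133 TPM. Hk2, the isoenzyme of muscle and of many proliferating cells, had 5.84 and 5.04 TPM, and was the second lowest of the 30 genes. The Hk1 level was 24.4-fold that of Hk2 (log2 ratio of TPM 4.61 ± 0.16, SD, n = 2), the widest gap among the enzyme pairs here. Even so, a non-coding 594-base form, Hk2-202, was given 39.9% and 23.6% of Hk2 TPM from 25.0 and 11.8 expected counts, so the level of Hk2 as a coding transcript was lower still (3.51 and 3.85 TPM).

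Gpi1 (glucose-6-phosphate isomerase, the next step) had 313 and 308 TPM, at rank 4 of the 30. Only part of that was coding: Gpi1-201, its full-length coding transcript, took 31.1 ± 1.5% of Gpi1 TPM (SD, n = 2), the retained-intron form Gpi1-211 25.1 ± 0.8%, and other retained-intron and nonsense-mediated decay forms most of the rest. Counted over protein-coding transcripts, Gpi1 had 93.7 and 109 TPM and dropped to rank 16 of the 30 genes. Across the 30, the share of TPM on protein-coding transcripts was lowest for Gpi1 (32.7 ± 3.83%, SD, n = 2) and Gapdh (33.6 ± 1.14%), and was 100% for Pfkm, Ldhb, Slc16a1 and Slc16a3.

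Phosphofructokinase, the main control point of glycolysis, is built from 3 kinds of subunit. Pfkm (muscle type) had 106 and 109 TPM, Pfkl (liver type) 51.8 and 58.9 TPM, and Pfkp (platelet type) 145 and 141 TPM. Pfkl was the lowest of the 3 in both libraries by either table (log2 ratio of Pfkl over Pfkp -1.37 ± 0.16, and of Pfkm over Pfkl 0.96 ± 0.11, SD, n = 2). The order of the other pair depended on which transcripts were counted. Over all transcripts Pfkm was below Pfkp in both libraries (log2 -0.41 ± 0.05, SD, n = 2), and over protein-coding transcripts it was above (log2 0.41 ± 0.03), because all Pfkm TPM and 56.8 ± 1.07% of Pfkp TPM lay on such transcripts. The retained-intron form Pfkp-212, 8681 bases long, took 14.8% and 11.7% of Pfkp TPM. Pfkfb3, which makes and breaks down the phosphofructokinase activator fructose 2,6-bisphosphate, had 18.4 and 17.2 TPM, close to the median detected gene.

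Aldolase splits the 6-carbon sugar. Aldoc, the brain isoenzyme known as an astrocyte marker, had 207 and 198 TPM. Aldoa, the general and muscle isoenzyme, had 557 and 577 TPM, the second highest of the 30, at rank 46 among nuclear protein-coding genes. Aldoc was at 0.36 times the level of Aldoa (log2 ratio of TPM -1.49 ± 0.08, SD, n = 2), and below it in both libraries by either table. Tpi1, which interconverts the products of the split, had 211 and 220 TPM.

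Gapdh, which makes the first energy-rich phosphate of the pathway and is widely used as a loading control, was the highest of the 30 with 802 and 758 TPM, rank 24 among nuclear protein-coding genes. Its level was also the one most open to the choice of table. By alignment, 66.2% and 64.5% of its TPM lay on Gapdh-208, a 483-base transcript annotated as non-coding, and 31.1% and 32.9% on the coding Gapdh-201. In the FASTQ-based table Gapdh-208 had 0.0% in both libraries, and 3 other coding forms, Gapdh-203, Gapdh-207 and Gapdh-209, shared the TPM almost evenly (30.7%, 29.9% and 35.2% in replicate 1). The FASTQ-based level, 2711 and 2712 TPM, was 2.07 and 2.20 times the alignment-based one after both tables were rescaled to nuclear protein-coding genes, the single gene of the 30 that was at least 2-fold apart. Over protein-coding transcripts of the alignment-based table Gapdh had 263 and 261 TPM, below Aldoa and Pkm. The deposited posterior standard deviation of Gapdh-201, a measure of how well reads could be placed, was 1138 and 944 counts on 6354 and 5894.

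The steps from phosphoglycerate kinase to enolase were of similar abundance. Pgk1, which makes ATP from the product of Gapdh and lies on chromosome X, had 160 and 152 TPM, and Pgam1, phosphoglycerate mutase, had 218 and 224 TPM. Eno2, the neuron-specific enolase, had 215 and 225 TPM, and Eno1, the general enolase of glia and other cells, 152 and 157 TPM. Eno2 was 1.43-fold above Eno1 in gene-level TPM (log2 0.51 ± 0.01, SD, n = 2). That balance rests on how reads of near-identical genes were divided, as follows.

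Rows with a sequence close to a member were found by aligning all other annotated transcripts to the members. Eno1b (chromosome 18, 48045335 to 48048412, plus strand, mm10), annotated as protein-coding, was 99.5% identical to Eno1 over 1736 of its 1747 bases, and 68.5% of its 100-base windows occurred unaltered in Eno1 transcripts. It held 5071 and 4684 expected counts, beside 5971 and 5701 on Eno1, so that 45.9% and 45.1% of the counts of the Eno1 sequence stood in rows other than Eno1. With these rows added to Eno1, Eno2 was below it: 0.74 times in the alignment-based table (log2 -0.43) and 0.88 times in the FASTQ-based one (log2 -0.18). Which enolase was higher was therefore not settled by these tables.

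Gapdh had 131 matching rows, 127 of them annotated pseudogenes, more than any other member. Together they held 979 and 943 expected counts in the alignment-based table and 8914 and 8901 estimated counts in the FASTQ-based one. Nearly all of those 8914 and 8901 stood on 1 processed pseudogene, Gm7336 (chromosome 7, 51746647 to 51747878), with 8277 and 8355 counts, against 321 and 291 in the alignment-based table, and 91.0% of its 100-base windows occurred unaltered in Gapdh. Pgk1 and Pgam1 each had a processed pseudogene in which 100% of the windows matched: Gm5537 on chromosome 3 held 450 and 604 expected counts by alignment and none to speak of by the FASTQ route, and Pgam1-ps2 on chromosome 7 held 205 and 192 by alignment and 0 by the FASTQ route. Mpc1-ps on chromosome 12 held 141 and 130 counts by alignment, 9.76% and 10.0% of the counts of the Mpc1 sequence. Gm1840 on chromosome 8, a copy of Gpi1, held 465 and 460 counts by alignment and 410 and 394 by the FASTQ route. Only 10.3% of its windows were identical to Gpi1, and its counts moved little between the routes.

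**Figure D3:**
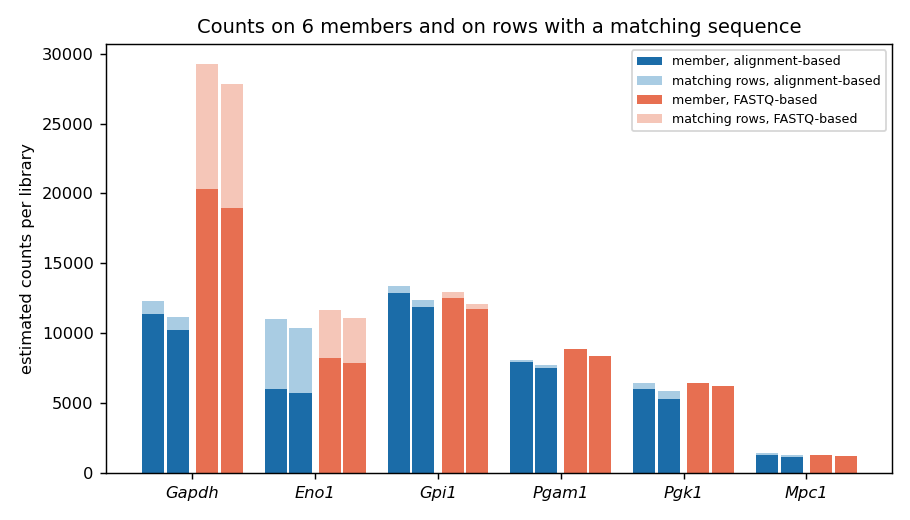
Counts per library on 6 members (dark) and on all rows with a matching sequence (pale), in the alignment-based table (blue, expected counts) and the FASTQ-based table (red, estimated counts), with replicate 1 as the left bar of each pair. Matching rows take 45.9% and 45.1% of the Eno1 sequence in the alignment-based table, and 8914 and 8901 counts beside Gapdh in the FASTQ-based table.

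Lactate dehydrogenase is a tetramer of A and B subunits, and tetramers rich in B are known to favour lactate use while those rich in A favour lactate production. Ldhb had 145 and 155 TPM, and Ldha 199 and 194 TPM. Ldhb was thus at 0.76 times Ldha in the alignment-based table (log2 ratio of TPM -0.39 ± 0.10, SD, n = 2). In the FASTQ-based table the order turned round, with Ldhb 1.35-fold above Ldha (log2 0.38 and 0.48). The counts moved little between the tables (Ldhb had 3364 and 3405 expected counts, against 3477 and 3503 estimated counts by the FASTQ route), and the transcripts that they were assigned to moved more. The alignment-based table put 84.2% and 87.1% of Ldhb TPM on the full-length Ldhb-201, of 1304 bases. The FASTQ-based table put 35.1% and 35.9% there and most of the rest on Ldhb-202 and Ldhb-203, of 437 and 867 bases. A shorter transcript gives a higher TPM for the same count, and a ratio of Ldhb to Ldha by TPM from these tables has no settled direction.

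Lactate and ketone bodies cross membranes through monocarboxylate transporters. Slc16a7, coding for the high-affinity MCT2 of neurons, had 36.3 and 36.7 TPM, and Slc16a1, coding for MCT1 of endothelium, astrocytes and oligodendrocytes, 34.2 and 38.0 TPM. They did not differ beyond their spread: the log2 ratio was 0.09 in replicate 1 and -0.05 in replicate 2. By the FASTQ-based table Slc16a7 was higher in both (log2 0.44 and 0.42). Slc16a3, coding for MCT4, the lactate exporter of strongly glycolytic cells and in brain of astrocytes, was the lowest of all 30 with 1.32 and 0.96 TPM, from 49 and 40 expected counts. Slc16a1 was 32.0-fold above it (log2 5.00 ± 0.43, SD, n = 2). With Slc16a3 so low the size of that gap depended on the setting, at log2 4.12 with a pseudocount of 1 TPM and 6.20 for counts not divided by length. Bsg, the chaperone basigin that brings MCT1 and MCT4 to the membrane, had 310 and 337 TPM, about as high as Gpi1, and Emb, the chaperone embigin that MCT2 prefers, had 10.0 and 10.2 TPM.

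**Figure D4:**
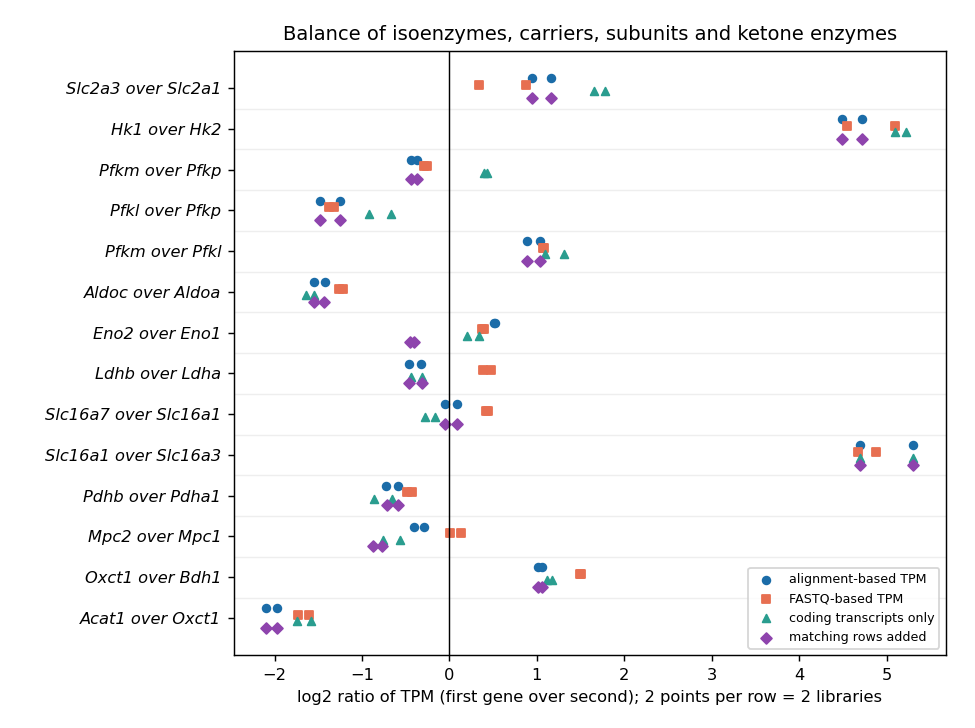
Log2 ratio of TPM, first gene over second, in each library (2 points per colour) for 14 pairs, by 4 ways of counting: alignment-based TPM, FASTQ-based TPM, protein-coding transcripts of the alignment-based table, and alignment-based TPM with matching rows added. Hk1 over Hk2 and Slc16a1 over Slc16a3 stand far right under all 4, and Eno2 over Eno1, Ldhb over Ldha, Pfkm over Pfkp, Slc16a7 over Slc16a1 and Mpc2 over Mpc1 have points on both sides of 0.

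Pyruvate enters mitochondria through a carrier of 2 subunits and is then oxidised by pyruvate dehydrogenase. Mpc2 had 55.5 and 57.8 TPM and Mpc1 73.3 and 70.8 TPM, a log2 ratio of Mpc2 over Mpc1 of -0.35 ± 0.08 (SD, n = 2) that was 0.07 in the FASTQ-based table, -0.66 over protein-coding transcripts and -0.82 with matching pseudogenes added. Pdhb, the beta subunit of pyruvate dehydrogenase, had 82.2 and 86.3 TPM, and Pdha1, its X-linked catalytic alpha subunit, 136 and 130 TPM (log2 ratio of Pdhb over Pdha1 -0.66 ± 0.10, SD, n = 2).

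The ketone enzymes were well above the median gene. Oxct1, which activates acetoacetate with coenzyme A and is the enzyme that liver lacks, had 244 and 245 TPM, at rank 5 of the 30. Over protein-coding transcripts it averaged 173 ± 3.44 TPM, rank 8, below Ldha with 194 ± 3.65 TPM (SD, n = 2). Acat1, which splits acetoacetyl-CoA into acetyl-CoA for the citric acid cycle, had 62.1 and 57.3 TPM. Bdh1, which turns hydroxybutyrate into acetoacetate, had 117 and 122 TPM. In both libraries Oxct1 was 2.05-fold above Bdh1 (log2 ratio of TPM 1.03 ± 0.04, SD, n = 2), and Acat1 was at 0.24 times Oxct1 (log2 -2.03 ± 0.09). These directions held in the FASTQ-based table, at log2 1.50 and -1.67, and over protein-coding transcripts, at log2 1.15 and -1.66. Hmgcs1, a cytosolic synthase that serves cholesterol synthesis, had 282 and 286 TPM.

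Which transcript led was mostly shared by the libraries and less often by the tables. Of the 29 members with several annotated transcripts, 27 had the same leading transcript by TPM in both libraries in the alignment-based table and 28 in the FASTQ-based one, but 19 had the same leading transcript in both tables and libraries. The alignment-based exceptions were Pkm, with M1 ahead in replicate 1 and M2 in replicate 2, and Slc16a3. Hk1 led with Hk1-202 (61.9% and 60.1%) by alignment and was spread over Hk1-202, Hk1-201 and Hk1-205 (30.2% to 31.8% in replicate 1) by the FASTQ route. Ldha lay on Ldha-202 (96.2% and 97.4%) by alignment and mostly on Ldha-201 (58.2% and 55.3%) by the FASTQ route. The FASTQ-based shares of some transcripts differed widely between the libraries: Pfkm-201 had 31.0% and 1.4%, Hk2-201 57.6% and 91.1%, and Mpc1-208 75.9% and 54.8%. By alignment Pfkm-201 had 66.3% and 61.4%, Hk2-201 60.1% and 73.8%, and Mpc1-208 90.7% and 89.0%. Aldoa-201 led by both, at 91.4% and 91.0% by alignment and 46.8% and 46.7% by the FASTQ route. With 2 libraries an exact sign-flip test of any ratio cannot go below 0.5, so no p is given for pairs or shares.

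The libraries were then compared gene by gene. The two-sided exact binomial test used here sets the reads of one library against those of the other and says nothing of conditions, and p-values were adjusted by the Benjamini-Hochberg method over the 12881 genes whose mean count reached 100. Of 29 members tested, 10 had an adjusted p under 0.05, against 11.8% of all genes tested. In that count 5 members were higher in replicate 1 (5.47% of all genes were) and 5 lower (6.33%), and 0 members were 2-fold apart (0.303% of all genes were). The power of this test grows with the count: among the 5675 genes whose mean count reached 1000, 17.6% were called, and 28 members lay in that range, all 10 called ones among them. The edgeR exact test adds variation estimated across genes, as a trend over their level (the common biological coefficient of variation was 0.0688). That test called 0 members, with 1 at an unadjusted p under 0.05 and a smallest adjusted p of 0.219, against 0.668% of all genes. With 1 library on each side, that variation is estimated from the same differences that are then tested, so 0 calls do not show that the libraries are alike. The sizes were small, with a median absolute log2 ratio of 0.06 over the members and 0.07 over all genes tested, and 28 of the 29 within 20% of equality.

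Slc2a1 had the largest ratio of the 29. It had 1559 expected counts in replicate 1 and 1156 in replicate 2, a log2 ratio of 0.32 (1.25-fold, exact 95% counting interval 1.15 to 1.35) with an adjusted p of 5.53e-07 by the exact binomial test. Acat1 had 4222 and 3453 counts (log2 0.18, adjusted p 3.35e-06), Pfkp 10644 and 8839 (log2 0.15, adjusted p 6.29e-12), Pfkfb3 1291 and 1060 (log2 0.17, adjusted p 0.0397) and Pdha1 8004 and 6897 (log2 0.10, adjusted p 0.00042). These 5 were higher in replicate 1, and Pfkfb3 no longer passed when the filter was a mean count of 10 (adjusted p 0.05).

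Lower in replicate 1 were Slc16a1 with 3208 and 3313 counts (log2 -0.16, adjusted p 0.000202), Eno2 with 8769 and 8963 (log2 -0.14, adjusted p 1.45e-09), Ldhb with 3364 and 3405 (log2 -0.13, adjusted p 0.00329), Tpi1 with 6557 and 6395 (log2 -0.08, adjusted p 0.0247) and Aldoa with 16816 and 16188 (log2 -0.06, adjusted p 0.00392). Eno2 and Tpi1 lie near each other on chromosome 6 (124760053 to 124769673 and 124810586 to 124814296), as does Gapdh (125161715 to 125166467), which did not pass (log2 0.04, adjusted p 0.228). The ratios are after scaling for depth, so that Aldoa, with more counts in replicate 1, had a fold of 0.960 (exact 95% counting interval 0.940 to 0.981).

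**Figure D5:**
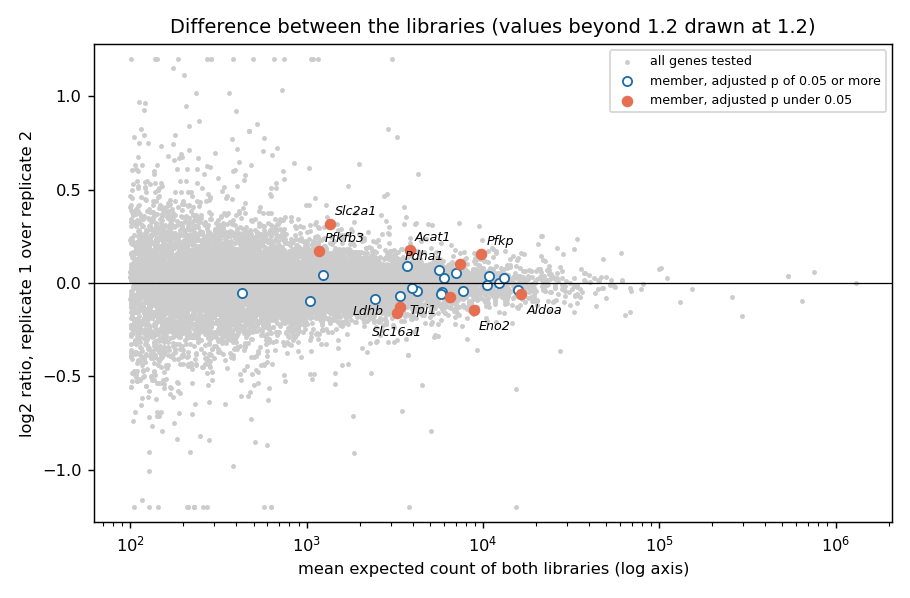
Log2 ratio of replicate 1 over replicate 2 against the mean expected count (log axis) for all 12881 genes tested (grey) and the 29 tested members, filled red where the adjusted p was under 0.05 by the exact binomial test. Slc2a1 stands highest at 0.32 and Slc16a1 lowest at -0.16, and all members lie inside the grey range.

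Markers of several other cell types differed between the libraries and stand here beside these ratios. Red blood cell markers summed to 958 TPM in replicate 1 and 566 TPM in replicate 2, with 5 of 5 tested higher in replicate 1, and meningeal markers to 416 and 161 TPM, with 3 of 4 higher. Most of the meningeal sum was Ptgds, with 333 and 85.1 TPM, and Col1a1 and Col1a2 differed less (27.2 and 24.2 TPM, 25.6 and 21.3 TPM). Oligodendrocyte markers summed to 195 and 335 TPM, with 5 of 5 tested lower in replicate 1, choroid plexus markers to 12.9 and 356 TPM (Ttr alone 8.02 and 340 TPM), with 2 of 3 lower, and microglial markers to 81.3 and 94.8 TPM, with 3 of 5 lower. Oligodendrocyte precursor markers summed to 150 and 147 TPM, with 2 of 4 higher in replicate 1 and 0 lower. Endothelial markers summed to 78.0 and 79.6 TPM, with 1 of 5 lower. Of the 8 neuronal markers 1 was called higher in replicate 1, Tubb3 (log2 0.15), and 3 lower, Camk2a (-0.17), Slc17a7 (-0.12) and Snap25 (-0.09). Of the 8 astrocyte markers 2 were called higher, Glul (log2 0.25) and Gja1 (0.16). Called lower were 4, with log2 ratios from -0.27 to -0.10, among them Gfap (-0.18), Aqp4 (-0.15) and Slc1a2 (-0.10). Among these markers, log2 ratios of the size seen for Eno2 (-0.14) and Ldhb (-0.13) thus stood in both directions. None of the marker genes was at 0 in both libraries. Their part in the ratios of the 10 members was not tested. Neither was that of the sex-linked difference, for the X-linked Pdha1 or for the other members. X-linked Pgk1 did not pass and had no settled direction: its log2 ratio was 0.07 by alignment (adjusted p 0.0741 by the exact binomial test), where the identical copy Gm5537 held 450 and 604 counts, and -0.07 by FASTQ-based counts (adjusted p 0.0673).

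Genes of the same and neighbouring pathways were taken from 10 lists of 121 genes, of which 100 reached 1 TPM in both libraries. Other glycolytic isoforms and relatives of the members were scarcer, with 10 of 20 detected. The highest were Bpgm at 32.9 ± 1.05 TPM, Pgam5 (a mitochondrial protein phosphatase, listed for its family name) at 30.2 ± 0.686, Pfkfb2 at 21.9 ± 0.537 and Tigar at 14.1 ± 1.35 TPM (SD, n = 2, as for all levels in this paragraph and the next). Eno3, the muscle enolase, was low at 2.64 ± 0.509 TPM, as was Pklr, the pyruvate kinase of liver and red blood cells, at 0.155 ± 0.0778 TPM. Pgk2 and Ldhc, known as testis isoforms, were at 0 counts in both libraries, where 3 counts is the limit that a count of 0 allows. Of 8 other carriers of the Slc2a family 5 were detected, led by Slc2a6 at 20.7 ± 0.735, Slc2a13 (a myo-inositol carrier) at 19.0 ± 0.926, Slc2a8 at 10.5 ± 0.156 and Slc2a12 at 2.28 ± 0.990 TPM. Slc2a2, the carrier of liver and pancreas, was at 0 counts in both. Besides Bsg and Emb, the lactate list was led by Slc16a11 at 13.8 ± 1.22 and Slc16a14 at 13.2 ± 1.11 TPM.

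Of the pyruvate dehydrogenase list all 11 genes were detected, led by the core subunits Dlat at 61.9 ± 0.997, Dld at 54.3 ± 2.35 and Pdhx at 33.3 ± 0.544 TPM, with the inhibitory kinase Pdk2 at 24.1 ± 3.07 TPM. In the ketone list, after Hmgcs1, came Acat2 at 48.2 ± 1.64, Aacs, which uses acetoacetate for lipid synthesis, at 44.6 ± 3.85 and Acss2 at 21.9 ± 0.127 TPM. Glycogen genes were led by the brain phosphorylase Pygb at 88.3 ± 0.622, Ugp2 at 34.5 ± 3.08, Gyg at 26.2 ± 0.672 and Pgm1 at 23.3 ± 0.445 TPM. Pygb stood above the phosphorylases of muscle and liver, Pygm at 7.37 ± 0.580 and Pygl at 1.81 ± 0.127 TPM. The pentose phosphate pathway was led by Tkt at 98.0 ± 4.47, Taldo1 at 57.6 ± 1.68, Pgls at 32.3 ± 1.98 and Pgd at 22.7 ± 0.940 TPM. The genes that move NADH electrons into mitochondria were led by Mdh1 at 249 ± 1.85, Mdh2 at 212 ± 2.40, Got2 at 97.1 ± 0.417 and Got1 at 87.9 ± 6.87 TPM. Both malate dehydrogenases, Mdh1 of the cytosol and Mdh2 of mitochondria, were thus about as abundant over all transcripts as Oxct1 and Tpi1 among the members. The citric acid cycle, with 13 of 13 detected, included Cs at 127 ± 1.59, Idh3b at 111 ± 1.45 and Sdha at 110 ± 3.73 TPM.

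Between the libraries 9 of the 92 tested genes of these lists passed, against the 11.8% of all genes. Hif3a, a member of the hypoxia-inducible factor family, was the one that was at least 2-fold apart, with 414 and 132 counts (log2 1.53, adjusted p 4.74e-28 by the exact binomial test). Also higher in replicate 1 were Trp53inp1 (log2 0.51) and Txnip, a brake on glucose uptake (log2 0.30). Lower in replicate 1 were Bsg (log2 -0.13), Pdk2 (-0.21), Pcx (-0.19), Ugp2 (-0.18), Gpd1 (-0.18) and Got1 (-0.11). By FASTQ-based counts Gpd1 no longer passed (log2 -0.15). The main hypoxia-inducible factors did not pass, with Hif1a at 28.0 and 29.4 TPM (log2 -0.01) and Epas1 at 38.6 and 39.4 TPM (log2 0.00).

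Promoter windows were read for what the members share beyond their enzymes. Windows of 300 bases, from 250 before to 50 after a gene's start, were available from RefSeq (GRCm38.p6) for 27 of the 30 members, with 41 windows in all. The motif ACGTG, a core that hypoxia-inducible factors bind, was searched on both strands. It lies within CACGTG, the E-box, which is its own reverse complement and so counts once on each strand. At least 1 window held it in 16 of 27 members (59.3%), against 29.2% of 10178 detected nuclear protein-coding genes with a window. Per window the shares were 46.3% of 41 and 24.8% of 13158. The sister core GCGTG was held by 66.7% of members and 56.5% of detected genes. The windows held a median of 21 CpG pairs for members and 22 for detected genes. A match is a description of the sequence, not a binding site. The most matches, 5 of ACGTG and 2 of GCGTG, stood in a window of Ldha, which is printed for that reason, with all matches on either strand in capitals.
Ldha, chr7:46845554-46845853, plus strand: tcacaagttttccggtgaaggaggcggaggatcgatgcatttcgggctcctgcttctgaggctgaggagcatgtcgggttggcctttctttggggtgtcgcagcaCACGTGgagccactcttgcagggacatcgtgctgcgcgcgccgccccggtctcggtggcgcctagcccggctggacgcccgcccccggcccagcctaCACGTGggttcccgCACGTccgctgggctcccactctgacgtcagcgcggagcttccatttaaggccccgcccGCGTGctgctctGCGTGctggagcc
Pfkm and Slc16a1 each had a window with 3 matches of ACGTG, Hk1, Hk2, Pgk1, Pkm, Pfkfb3 and Slc16a3 had windows with 2, and the windows of Eno2, Tpi1 and Gpi1 held neither core.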

How the data were processed

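Gene and transcript tables with expected counts and TPM, made from alignments to mm10 with GENCODE M21, and a transcript table of estimated counts and TPM made from the FASTQ file were deposited by the authors, per the deposited descriptions. Those tables also hold, as deposited, posterior signal values on the TPM scale and each transcript's percent of its gene, made in the same step. Software names are not in the sources used here (the columns are those RSEM and kallisto write). Strand use in counting is not given either, so overlapping genes may share reads. Hybrid reads were compared with the reference strain's sequence, and alleles were not analysed here.

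FASTQ-based transcripts were summed per gene. Expected counts were rounded, scaled by TMM (edgeR 4.0.16, R 4.3.3) and compared by an exact binomial test, two-sided, adjusted by Benjamini-Hochberg over genes whose mean count reached 100. Intervals are exact at 95% and cover counting error only. Rows named only by a number, under 3e-05% of counts, and spike-ins, 0.358% and 0.359%, were left out. Alternatives were DESeq2 1.42.0 size factors, other filters, the edgeR exact test and the FASTQ-based table. Matching rows had at least 90% BLAST 2.17.0 identity over at least 50% of their length. Adding Eno1b, counting protein-coding transcripts only and the background at a mean count of 1000 were chosen after seeing the data.

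The members and lists were chosen with earlier results of these data known. Values per library are given for pairs, called members, the 5 highest and 5 lowest members and those at least 2-fold apart between tables, and levels for the 4 highest genes of each list; other genes were named after their values were seen. Some genes of the lists are not reported here, and counts over the lists include them. P-values measure only the spread of reads between these libraries. Python 3.11.15, scipy 1.17.1, pandas 2.3.3 and matplotlib 3.10.9 were used.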

Additional observations from a re-analysis of the deposited data

How the results depend on the processing

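Across settings, the 10 member calls kept their direction, and with DESeq2 size factors, total counts, FASTQ-based counts or protein-coding genes only all 10 still passed. With a minimum mean count of 10 or no filter Pfkfb3 no longer did. The edgeR exact test called 0 members and 86 genes in all. Genes at least 2-fold apart numbered 176 with a minimum of 10, 196 with no filter and 22 among protein-coding genes. Of the pathway genes the FASTQ-based counts called 10, against 9, with Ptbp1 and Hnrnpa2b1 gained and Gpd1 lost.

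The pair ratios depended more on the table. With FASTQ-based TPM the log2 ratio was 0.60 for Slc2a3 over Slc2a1, 4.82 for Hk1 over Hk2, -0.27 for Pfkm over Pfkp, -1.24 for Aldoc over Aldoa, 0.38 for Eno2 over Eno1, 0.43 for Slc16a7 over Slc16a1, and turned round to 0.43 for Ldhb over Ldha. For Mpc2 over Mpc1 it was 0.07 ± 0.09 (SD, n = 2), so neither gene was higher beyond the spread. With counts not divided by length the ratios were 1.47 for Slc2a3 over Slc2a1, -0.75 for Pfkm over Pfkp, -1.23 for Aldoc over Aldoa, 0.60 for Eno2 over Eno1, -0.83 for Ldhb over Ldha and 0.38 for Slc16a7 over Slc16a1. Over protein-coding transcripts they were 1.71 for Slc2a3 over Slc2a1, 5.16 for Hk1 over Hk2, -1.60 for Aldoc over Aldoa, 0.27 for Eno2 over Eno1, and reversed at 0.41 for Pfkm over Pfkp and -0.22 for Slc16a7 over Slc16a1. With matching rows added Eno2 over Eno1 reversed to -0.43. A pseudocount of 1 TPM gave 4.37 for Hk1 over Hk2. In single libraries Slc16a7 over Slc16a1 ran from -0.05 to 0.09. The M1 share was 44.7% by the FASTQ-based table.

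The summed level of the members was 9874 TPM in the FASTQ-based table, 10648 over nuclear protein-coding genes, 5050 with matching pseudogenes, 5192 with all matching rows and 3834 over protein-coding transcripts, against 4916 as deposited. The cause of these shifts was not tested. No paired analysis was possible because there is 1 group. Depth limits Slc16a3, with 49 and 40 counts, and Hk2, with 437 and 419.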
